A study of Mus musculus with 8 samples.

Results

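Distal ATAC-seq peaks found in MPP3 cells and not in MPP4 cells were described across the mouse genome. ATAC-seq inserts sequencing adapters into accessible chromatin, so that a peak marks a stretch of open DNA, and a distal peak lies away from gene starts, where most enhancers are found. The cells are blood progenitors that can still form several lineages, with MPP3 cells biased to the myeloid and MPP4 cells to the lymphoid ones. The peaks were chosen by 2 measured properties: an MPP3 peak that shared no base with any MPP4 peak, and a centre more than 1 kb from every GENCODE vM21 transcript start. Of 87642 MPP3 peaks on the 19 autosomes, 64164 were distal, and 18180 of these were MPP3-only. The MPP3-only peaks thus made up 20.7% of all MPP3 peaks and 28.3% of the distal ones (Wilson 95% interval, 28.0 to 28.7%). The other 45984 distal MPP3 peaks overlapped an MPP4 peak and are named shared here. In the MPP4 table, 17354 of 63378 distal peaks (27.4%) overlapped no MPP3 peak and serve as the mirror set.

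The series holds 8 libraries of C57BL/6 mice, 2 for each of 4 groups, each from 5000 sorted bone marrow cells. The sample labels give the wild-type (WT) groups as Ebf1fl/fl Tie2Cre +/+ and the knockout (KO) groups as Ebf1fl/fl Tie2Cre +/cre, so that by these labels the controls also carry the floxed Ebf1 allele. The series design text instead names wild-type Ebf1 with Tie2Cre for the controls, and the study's methods allow either floxed or Cre-carrying littermates. The mice were 8 weeks old in MPP3 WT, 8 and 9 weeks in MPP3 KO, 9 weeks in MPP4 WT and 8 weeks in MPP4 KO, and all were female except 1 male in MPP4 WT. Tie2 drives Cre in the endothelium as well as in hematopoietic stem cells, so deletion was not restricted to progenitors. By the labels MPP3 cells were lineage-negative, Sca1+ and cKit+ (LSK) and CD150- CD48+, and MPP4 cells were in addition Flt3+. The gate given for MPP3 does not exclude Flt3+ cells. The values used for each peak are the deposited means over the 4 libraries of a cell type, WT and KO together. No per-library value was analysed here, so no difference below carries a replicate error, a test or a p-value, and the intervals cover counting error only. A peak may owe its place in the MPP3 table to WT cells, KO cells or both, and which of these holds for a given peak was not examined here. Whether a difference in depth or peak-calling sensitivity between the cell types put a peak in one table only was not tested.

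Several families of transcription factors open or bind distal elements in early blood cells. GATA factors act in stem cells and in the erythroid, megakaryocyte and mast cell lineages, where a GATA site is often joined to the letters CTG, part of an E-box, bound by TAL1. EBF1 specifies B cells together with E proteins, which bind E-boxes. PU.1, RUNX1, IRF8 and C/EBP factors act in myeloid and, for some, in lymphoid cells. Each motif was searched as letters on both strands in the 200 bp around the peak centre, and a peak is said to hold a motif if this window does. In a peak shorter than 200 bp the window reaches past both ends, and a match can lie outside the peak. Median peak length was 197 bp in the MPP3-only and 282 bp in the shared peaks. The letters were AGATAA for GATA, TCCCNNGGG or CCCNNGGGA for EBF1 (forms that can overlap), CAGGTG or CAGCTG for E-boxes, GAGGAAGT for PU.1 and TGTGGTT for RUNX. The remaining motifs were TTGCNNAA for C/EBP, TGANTCA for AP-1, GAAANNGAA for IRF, CCGGAAG for ETS, CAACTG for MYB, TTCNNNGAA for STAT, TGATTNAT for HOX-PBX, and CCACNAGGG, CCAGNAGGG or CCACNAGAT for CTCF. A match is a description of the letters and not a measured binding site.

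The following central 200-bp windows (GRCm38, plus strand) show the motifs on which the results below turn, with every match to a searched motif, and the CTG 7 or 8 bases from a GATA match, in capitals. The first 2 are MPP3-only peaks assigned to Zfpm1, which encodes FOG1, a partner of GATA factors. The third lies in an intergenic stretch of chromosome 2 with no gene in reach, and shows a GATA motif with a CTG at 8 bases. The fourth, in an intron of Erg, and the fifth, near Midn, hold an EBF1 motif, which at Midn lies partly beyond the end of the peak. The sixth is the single MPP3-only peak of Flt3. The seventh, an intergenic peak of chromosome 9, is the C/EBP-holding peak with the highest abundance per length.
Zfpm1, chr8:122309383-122309582: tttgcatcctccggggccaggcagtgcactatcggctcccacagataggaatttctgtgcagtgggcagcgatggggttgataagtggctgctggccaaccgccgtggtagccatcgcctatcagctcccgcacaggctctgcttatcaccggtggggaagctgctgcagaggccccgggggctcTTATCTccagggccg
Zfpm1, chr8:122321687-122321886: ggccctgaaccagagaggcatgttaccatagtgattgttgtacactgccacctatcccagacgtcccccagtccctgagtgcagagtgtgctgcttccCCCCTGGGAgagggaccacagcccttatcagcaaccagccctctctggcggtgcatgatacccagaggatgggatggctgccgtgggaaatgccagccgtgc
Chromosome 2 intergenic, chr2:116998955-116999154: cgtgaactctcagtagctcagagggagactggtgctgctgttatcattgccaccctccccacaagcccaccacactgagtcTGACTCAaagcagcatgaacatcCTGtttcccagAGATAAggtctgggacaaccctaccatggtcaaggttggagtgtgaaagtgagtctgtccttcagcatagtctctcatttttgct
Erg, chr16:95428330-95428529: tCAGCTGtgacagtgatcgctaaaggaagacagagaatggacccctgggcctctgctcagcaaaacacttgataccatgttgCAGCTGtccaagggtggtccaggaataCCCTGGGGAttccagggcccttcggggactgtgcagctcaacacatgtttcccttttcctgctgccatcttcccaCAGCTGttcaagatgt
Midn, chr10:80160862-80161061: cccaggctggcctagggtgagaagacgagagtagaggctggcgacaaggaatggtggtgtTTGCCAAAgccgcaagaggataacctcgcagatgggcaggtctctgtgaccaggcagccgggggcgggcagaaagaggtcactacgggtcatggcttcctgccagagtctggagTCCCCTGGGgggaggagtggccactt
Flt3, chr5:147332681-147332880: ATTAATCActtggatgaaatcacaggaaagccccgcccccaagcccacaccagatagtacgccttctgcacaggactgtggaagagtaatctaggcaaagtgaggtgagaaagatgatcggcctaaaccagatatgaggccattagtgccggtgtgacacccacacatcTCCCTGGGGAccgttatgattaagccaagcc
Chromosome 9 intergenic, chr9:58275937-58276136: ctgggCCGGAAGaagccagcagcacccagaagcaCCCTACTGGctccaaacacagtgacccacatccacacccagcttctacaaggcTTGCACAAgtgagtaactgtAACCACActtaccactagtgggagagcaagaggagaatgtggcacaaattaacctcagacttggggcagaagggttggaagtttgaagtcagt

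The MPP3-only peaks were weak and short. Abundance is given as log2 CPM, the log2 of the depth-scaled read count of the peak (counts per 1000000, CPM), averaged by the authors over the 4 libraries. Its median was 1.16 in the MPP3-only peaks (quartiles 0.85 and 1.61), against 2.33 in the shared distal peaks (1.65 and 3.21) and 1.15 in the MPP4-only peaks (0.80 and 1.64), the last on the scale of a separately normalised table. Their median length was 197 bp, against 282 bp in the shared and 207 bp in the MPP4-only peaks, with a lowest value of 150 bp in each set. Per kilobase of peak, the median log2 CPM was 3.49 in the MPP3-only and 4.15 in the shared peaks. Abundance is not independent of the choice, since a strong peak passes a peak caller more easily in both cell types, and these values describe the choice rather than test it.

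**Figure D1:**
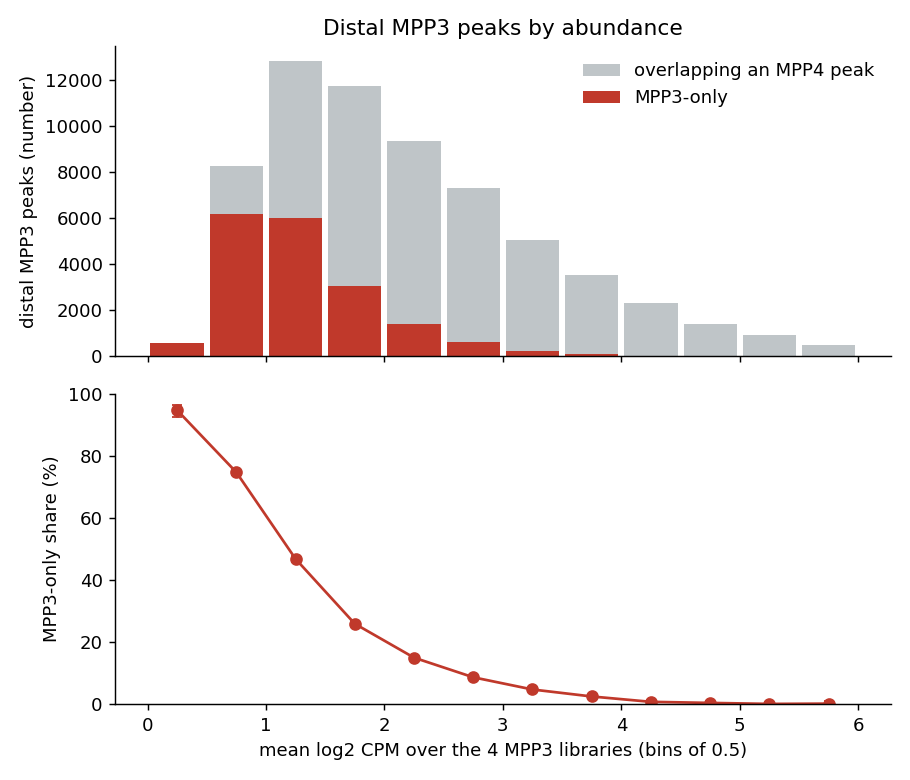
Number of distal MPP3 peaks (top, stacked bars, MPP3-only in red) and the share that is MPP3-only (bottom, percent, Wilson 95% intervals) in bins of 0.5 of the mean log2 CPM over the 4 MPP3 libraries. The MPP3-only share is 94.8% in the lowest bin and close to 0 above a log2 CPM of 4; the 395 peaks of log2 CPM 6 or more, none of them MPP3-only, are not drawn.

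The share of distal MPP3 peaks that were MPP3-only went from 76.1% (6743 of 8864) at a log2 CPM under 1 to 36.8% between 1 and 2, 12.2% between 2 and 3 and 3.83% between 3 and 4. Between 4 and 5 it was 0.644% (24 of 3726), between 5 and 6 it was 0.141% (2 of 1422), and of the 395 peaks at 6 or more none was MPP3-only (upper bound 0.963%). Every distal MPP3 peak at 6 or more thus overlapped an MPP4 peak. In each chromosome the share lay between 26.1% (chromosome 5) and 30.9% (chromosomes 1 and 15). The MPP4-only share of distal MPP4 peaks had a similar course, on its separately normalised scale. In bins of 0.5 it was 84.5% from 0, 46.9% from 1, 16.6% from 2 and 0.731% from 4. The MPP3-only share in these bins was 94.8%, 46.8%, 15.0% and 0.772%.

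Most of the MPP3-only peaks lay well apart from MPP4 peaks. The median distance to the nearest MPP4 peak was 5862 bp, 55.02% lay over 5 kb and 19.02% over 20 kb away, and 8.10% lay within 500 bp. This changed with abundance. Among MPP3-only peaks under a log2 CPM of 1, 2.61% lay within 500 bp of an MPP4 peak, against 19.9% between 2 and 3 and 31.7% between 3 and 4. At the edge of the rule, the 44 peaks within 50 bp of an MPP4 peak had a median log2 CPM of 1.33, and the 88 shared peaks overlapping one by at most 50 bp had 1.25. Likewise, the 172 members centred in the first 100 bp beyond the 1-kb limit had a median log2 CPM of 1.55, and the 186 MPP3-only peaks in the last 100 bp inside it had 1.41.

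Introns held 52.5% of the MPP3-only peaks, intergenic DNA 41.8% and exons 5.69%. The shared distal peaks were placed almost alike, with 52.5%, 41.5% and 6.02%. The MPP3-only peaks lay farther from transcript starts, at a median of 11396 bp against 9840 bp, and 3.15% against 1.75% lay over 100 kb from any start. GC content differed little, with medians of 51.4% and 50.8%. Repeats were more frequent: 16.3% of the MPP3-only peaks (2964) were at least 50% soft-masked, that is, marked as repeat in the reference, against 5.61% of the shared and 10.7% of the MPP4-only peaks. Soft-masking decreased with abundance, from 24.5% of MPP3-only peaks under a log2 CPM of 1 to 5.51% between 2 and 3.

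Over all abundances together, GATA and EBF1 motifs were the only 2 of the 13 motifs with a higher share in the MPP3-only than in the shared distal peaks. AGATAA was present in 12.9% of MPP3-only windows (2345 of 18180, interval 12.4 to 13.4%), in 8.31% of shared windows (8.06 to 8.56%) and in 5.27% of MPP4-only windows (4.95 to 5.62%), against 8.19% over all MPP3 peaks. The EBF1 motif was present in 5.74% (1043 peaks, 5.41 to 6.08%), 3.60% and 2.44%, against 4.68% over all MPP3 peaks. For both motifs the order was thus MPP3-only, shared, MPP4-only, and the intervals did not overlap. The peaks of the sets differ in repeat content, and in windows under 50% soft-masked the shares were 14.3% against 8.50% for GATA and 6.13% against 3.66% for EBF1. Over whole peaks, which are longer in the shared set, the differences were much smaller, with 13.4% against 12.6% for GATA and 6.10% against 5.60% for EBF1.

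Motifs of several other factors were less frequent in the MPP3-only peaks. PU.1 motifs were found in 5.14% of MPP3-only windows, against 10.9% of shared and 10.5% of MPP4-only windows. RUNX motifs were found in 7.78%, 12.8% and 12.7%, and IRF motifs in 4.30%, 7.25% and 9.08%. In these 3 the shared and the MPP4-only sets both stood above the MPP3-only set. CTCF motifs, which mark boundaries of chromatin loops, had shares of 5.08%, 7.79% and 6.17%. C/EBP motifs, at 8.66%, 9.22% and 7.55%, AP-1 motifs, at 8.70%, 9.83% and 7.60%, and E-boxes, at 28.7%, 30.4% and 31.0%, differed less between the sets over all abundances. At a log2 CPM of 2 or more, E-boxes (33.9% in the MPP3-only against 30.9% in the shared peaks) and C/EBP motifs (12.3% against 9.61%) were more frequent in the MPP3-only peaks. This came from peaks between 2 and 3, since at 3 or more the shares were 30.8% against 31.2% for E-boxes and 9.60% against 9.98% for C/EBP. In MPP4-only peaks, on their separately normalised scale, the E-box share rose from 27.8% under 1 to 37.0% between 2 and 3. It was 46.0% at 3 or more (144 of 313), above the 30.8% of the MPP3-only peaks. Shares over all MPP3 peaks were 7.96% for PU.1, 9.70% for RUNX, 5.82% for IRF, 6.49% for CTCF, 8.16% for C/EBP, 8.28% for AP-1 and 28.8% for E-boxes. The 4 rarer or flatter motifs, MYB, STAT, ETS and HOX-PBX, had MPP3-only shares of 10.7%, 4.004%, 1.41% and 1.35%, each below its shared share of 11.7%, 5.13%, 2.37% and 2.00%.

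**Figure D2:**
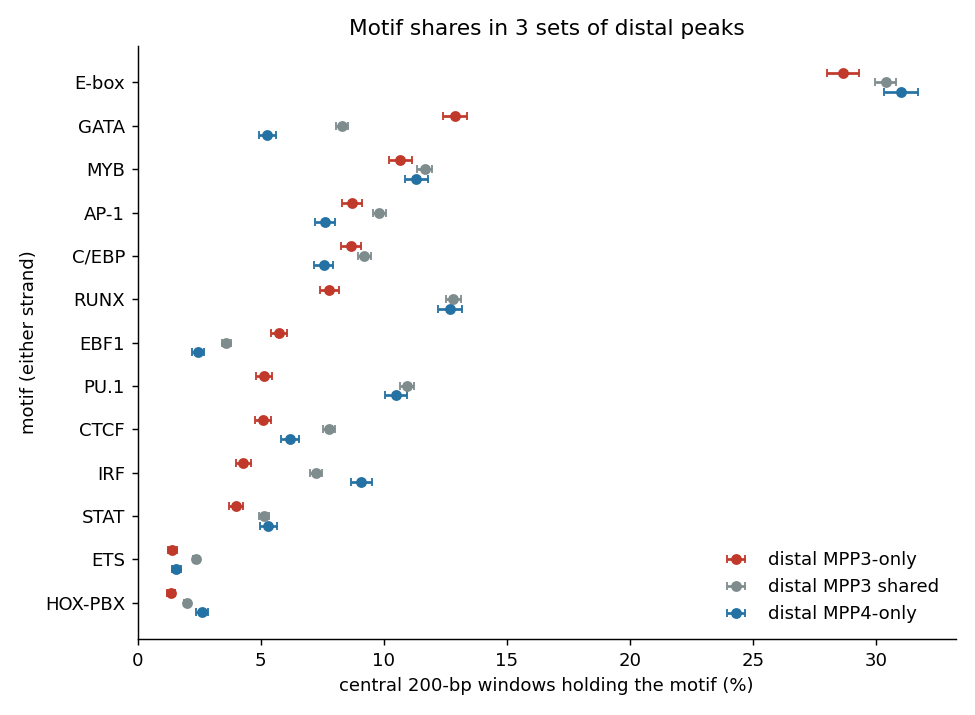
Share of central 200-bp windows that hold each of 13 motifs on either strand (percent, Wilson 95% intervals) in MPP3-only (red), shared (grey) and MPP4-only (blue) distal peaks. Only GATA and EBF1 have the red point above the grey one; PU.1, RUNX and IRF have it lowest of the 3.

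The sets differ in abundance, so the shares were also set side by side in bins of log2 CPM. Within a bin abundance still differs, most of all at 3 or more, where 328 of the 354 MPP3-only peaks lay under 4 while the shared peaks reached 9.33, and the MPP4-only values come from a separately normalised table. In MPP3-only peaks the GATA share was 9.51% under a log2 CPM of 1, 13.4% between 1 and 2, 19.5% between 2 and 3 and 25.7% at 3 or more (91 of 354, interval 21.4 to 30.5%). In the shared peaks the same bins held 6.51%, 7.32%, 7.95% and 10.1%, and in the MPP4-only peaks 6.15%, 4.78%, 4.28% and 5.11%. The EBF1 share of the MPP3-only peaks was 4.36%, 5.65%, 9.54% and 12.4% (44 of 354, interval 9.39 to 16.3%), while the shared peaks had 2.07%, 3.17%, 3.70% and 4.21%. Both motifs were thus most frequent in the strongest MPP3-only peaks, and in each of the 4 bins above the shared peaks. No other motif was above the shared peaks in all 4 bins, but C/EBP motifs were between 1 and 2 (9.56% against 8.64%) and between 2 and 3 (12.8% against 9.26%), and AP-1 motifs by less in the same 2 bins (9.61% against 9.07%, and 10.6% against 9.80%). PU.1 motifs stayed between 4.42% and 5.72% in the MPP3-only peaks in all bins and between 10.2% and 13.1% in the shared ones. In the MPP4-only peaks they were at 10.8%, 10.6%, 9.60% and 6.07%. At 3 or more the MPP4-only share (19 of 313, interval 3.92 to 9.29%) was thus close to the MPP3-only share of 5.37% (19 of 354, interval 3.46 to 8.23%).

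Read the other way, among distal MPP3 peaks of a log2 CPM between 2 and 3, 25.4% of those with a GATA motif (396 of 1556) and 26.4% of the 734 with an EBF1 motif were MPP3-only, against 12.2% of all. Of those with a PU.1 motif in that bin 6.23% were MPP3-only, and of those with a RUNX motif 9.17%.

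**Figure D3:**
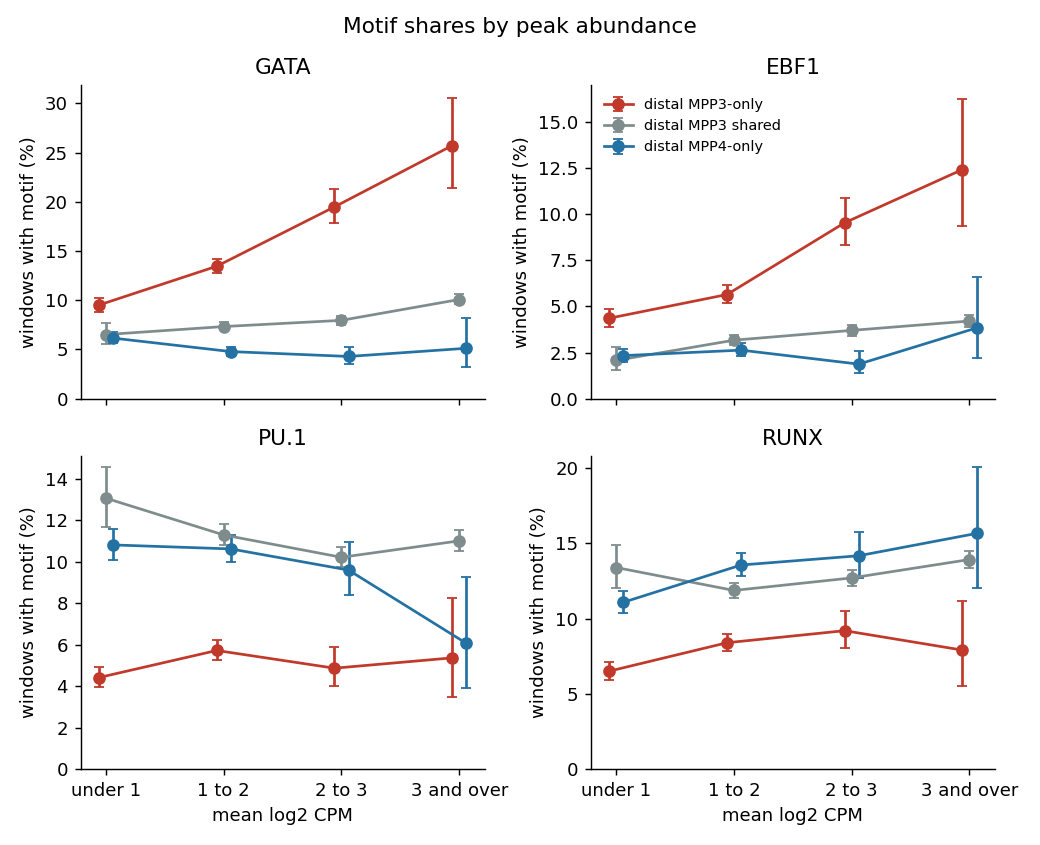
Share of windows that hold the GATA, EBF1, PU.1 or RUNX motif (percent, Wilson 95% intervals) in 4 bins of the mean log2 CPM, for MPP3-only (red), shared (grey) and MPP4-only (blue) distal peaks, with a vertical scale of its own in each panel. GATA reaches 25.7% and EBF1 12.4% in the strongest MPP3-only peaks. PU.1 stays near 5% in the MPP3-only peaks and is 6.07% in the strongest MPP4-only peaks. The log2 CPM of the MPP4-only peaks comes from a separately normalised table.

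EBF1 motifs were found in 4.14% of MPP3-only peaks with a GATA motif and in 5.97% of those without it. Of the MPP3-only peaks 3291 (18.1%) held at least 1 of them and 97 held both, against 11.7% with at least 1 in the shared and 7.64% in the MPP4-only peaks. At a log2 CPM of 3 or more, 130 of 354 MPP3-only peaks (36.7%) held at least 1 of them, against 1918 of 13756 shared (13.9%) and 28 of 313 MPP4-only peaks (8.95%). E-boxes were found in 40.5% of MPP3-only peaks with an EBF1 motif and in 27.9% of those without it. The pair was 35.7% and 30.2% in the shared peaks, and 32.1% and 31.0% in the MPP4-only peaks. MPP3-only peaks with a GATA motif had fewer E-boxes of this form, 25.4% against 29.1% in those without it, and 10.1% against 7.43% held a RUNX motif. They had a median log2 CPM of 1.36, against 1.14 without a GATA motif, and the same comparison for EBF1 gave 1.37 against 1.15. Median window GC was 54.5% with and 51% without an EBF1 motif, and 53% and 50.5% for E-boxes. For GATA it was 49% and 51.5%, and for RUNX 49.5% and 51.5%. The motif pairs were not matched for GC, and its part in them was not tested.

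The letters CTG were more frequent at 7 and 8 bases before the GATA motif than at other spacings. CTG stood 8 bases before AGATAA in 9.38% of MPP3-only windows with a GATA motif (220 of 2345, interval 8.27 to 10.6%), and 7 bases before it in 6.23%. At 4, 5, 6 and 9 to 15 bases, the share was between 2.26% and 3.54%. The shared peaks had the same 2 spacings raised, to 5.60% at 8 and 4.66% at 7 bases. The MPP4-only peaks did not, with 1.75% (16 of 915, interval 1.08 to 2.82%) at 8 and 1.97% at 7 bases. Over all windows of a set, 2.00% of MPP3-only peaks (363), 0.844% of shared peaks (388), 0.196% of MPP4-only peaks (34) and 0.981% of all MPP3 peaks held the arrangement with 7 or 8 bases. The chromosome 2 sequence above holds it with 8.

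**Figure D4:**
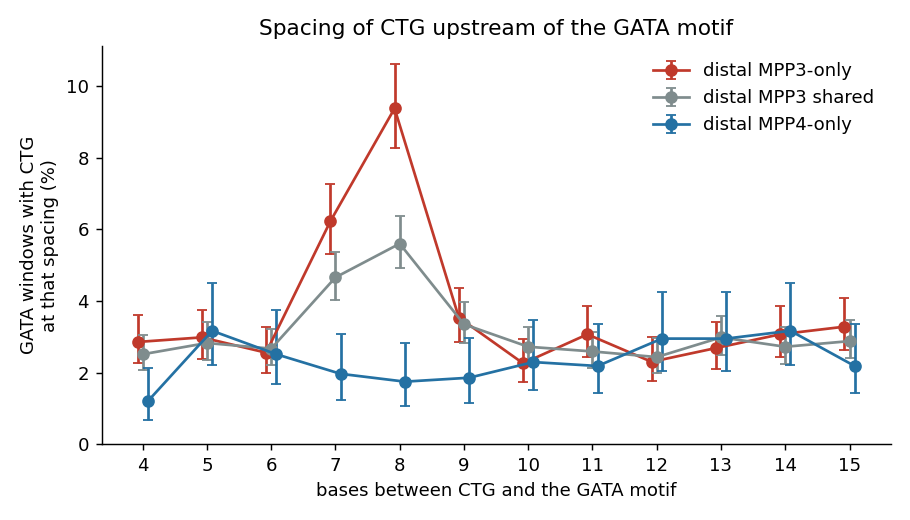
Share of windows with a GATA motif (percent, Wilson 95% intervals) in which CTG stands 4 to 15 bases upstream on the same strand, for MPP3-only (red), shared (grey) and MPP4-only (blue) distal peaks. The MPP3-only points stand out at 7 and 8 bases (6.23% and 9.38%), the shared points less so, and the MPP4-only points not at all.

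The 10 MPP3-only peaks with the highest log2 CPM per kilobase, among those under 50% soft-masked, were all within 500 bp of an MPP4 peak, and 6 lay under 3 kb from a transcript start. An intronic Zfpm1 peak had the highest log2 CPM of all MPP3-only peaks, 5.59, and lay 199 bp from an MPP4 peak and 2786 bp from a start. The Klf13 intron peak chr7:63937218-63937460 had a log2 CPM of 4.86 and lay 1007 bp from a start, just inside the rule. Klf13 encodes a Krüppel-like factor. The peak assigned to Hes7, chr11:69124581-69124730, was first per kilobase (7.11) with a log2 CPM of 4.37. Its nearest transcript start was that of Aloxe3, 1240 bp away. Whether it lies on a gene that GENCODE vM21 does not hold was not examined. The other 7 had a log2 CPM between 3.88 and 4.45 and were assigned to Gm44734, Tspoap1, Ccdc9, Pisd-ps1 and Ell, or to no gene in 2 cases, 43170 bp from the start of the chemokine receptor gene Ccr1 and 15810 bp from that of Stoml1. By log2 CPM per kilobase, the highest peaks with a given motif in their window were the intronic Zfpm1 peak of log2 CPM 5.59 for GATA and the intergenic peak near Stoml1 for C/EBP (log2 CPM 3.99). For the E-box it was the Pisd-ps1 exon peak (4.45). For EBF1 it was the Midn peak (3.38, 660 bp from an MPP4 peak), whose EBF1 match lies partly beyond the end of the peak.

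Peaks over 5 kb from any MPP4 peak were looked at separately, a group chosen after the values were seen. Of the 354 MPP3-only peaks with a log2 CPM of 3 or more, 52 lay that far away, and 119 lay within 500 bp. Among those under 50% soft-masked, the strongest isolated peak, chr14:72113411-72113981, had a log2 CPM of 4.43, a GATA motif and no MPP4 peak within 257914 bp. The next ones were in or near Mroh1 (4.03), Cnn1, which encodes a smooth muscle calponin (3.99), Gm45080 (3.98) and Vav2, a guanine exchange factor of antigen receptor signalling (3.94). Of the 10 strongest isolated peaks 4 held a GATA motif, among them the chromosome 2 peak printed above (log2 CPM 3.74, 8390 bp from an MPP4 peak) and a chromosome 11 peak 66774 bp from any MPP4 peak (3.94). Over all 354 MPP3-only peaks of that abundance, isolated or not, 91 (25.7%) held it.

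For gene counts, each peak took the closest transcript whose body, extended by 20 kb upstream and 10 kb downstream, covered the peak centre. This gave a gene to 15045 MPP3-only peaks, spread over 9447 genes, 6509 of them with 1 such peak. Over all genes 27.6% of distal MPP3 peaks were MPP3-only (15045 of 54603), and this is the share against which genes and lists are read below. The genes with the most MPP3-only peaks were long ones. Gm20388, a locus of 4435 kb that spans other genes, had 23 of 82 distal peaks (28.0%). Foxp1, a forkhead repressor needed early in B cell development, had 21 of 49 (42.9%), Camta1, a calmodulin-binding activator, 18 of 34 (52.9%), and Nav2, a neuronal navigator, 14 of 36 (38.9%). Xylt1, a xylosyltransferase of proteoglycan synthesis, had 13 of 27, Foxn3 had 13 of 29 and the nuclear receptor gene Rora 13 of 35. With 12 each followed, among others, the growth factor receptor gene Fgfr2 (of 18), Thada (of 20) and the glutamate receptor gene Grik4 (of 30). These genes span between 276 and 4435 kb. The median log2 CPM of their MPP3-only peaks lay between 0.99 (Thada) and 1.55 (Foxn3). At Foxp1, 11 of the 21 held an E-box, 2 an EBF1 motif and none a PU.1 motif. Motif counts at single genes, here and below, rest on few peaks. Over all MPP3-only peaks the shares were 28.7% for E-boxes, 12.9% for GATA, 5.74% for EBF1 and 5.14% for PU.1.

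**Figure D5:**
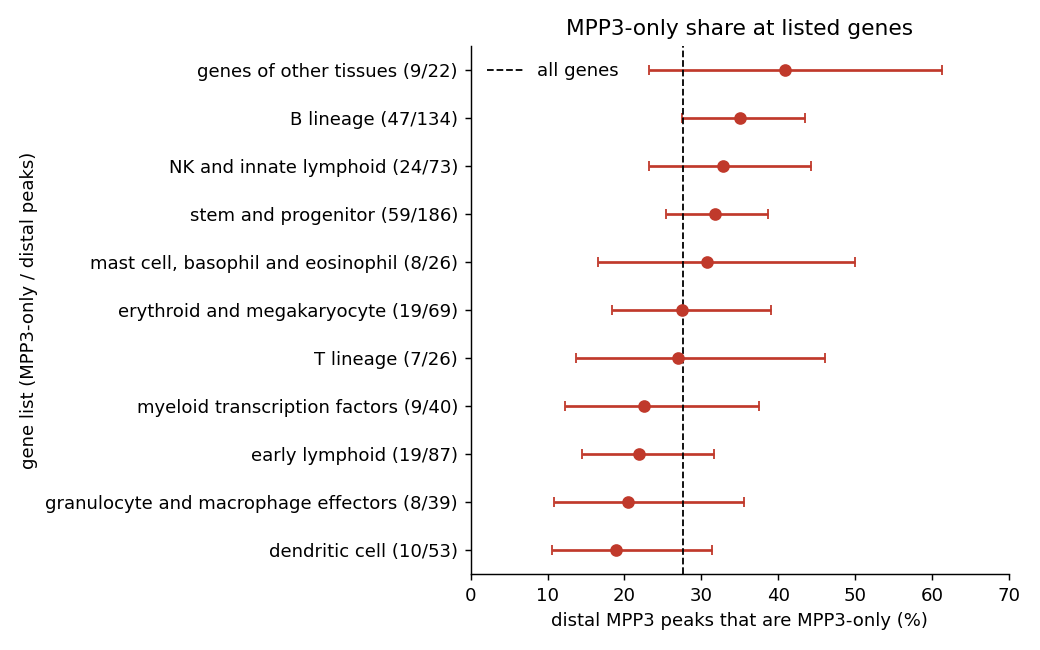
Share of the distal MPP3 peaks assigned to the genes of each list that were MPP3-only (points, percent, with Wilson 95% intervals and counts in the labels). The dashed line is the 27.6% over all genes; it lies within the interval of each of the 11 lists, and at the lower end of that of the B lineage list.

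B lineage genes had an MPP3-only share of 35.1% (47 of 134, interval 27.5 to 43.5%), whose interval includes the 27.6% over all genes at its lower end, and 14 of the 23 genes with a distal peak had at least 1. Ebf1 itself, the gene deleted in the KO, had 9 of its 18 distal peaks in the set, all intronic. Their log2 CPM was between 0.51 and 2.51, and none held an EBF1 or GATA motif, against 18.1% of all MPP3-only peaks with at least 1 of these. The strongest, chr11:44897372-44897637, held an E-box and a C/EBP motif and lay 2314 bp from an MPP4 peak. MPP4 had 7 distal peaks of its own at Ebf1. Ikzf3 (Aiolos), a zinc finger factor of late B cell stages, had 5 of 6 distal peaks MPP3-only. Their log2 CPM was between 0.74 and 2.40, and 4 of the 5 held an E-box. Pax5, which commits cells to the B lineage, had 3 of 4, with log2 CPM of 0.86, 0.53 and 2.17, the last in an intron 1131 bp from a start and with an E-box. A further 3 distal MPP4-only peaks were assigned to Pax5.

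Among the other B lineage genes Blnk, the adaptor of B cell receptor signalling, had 5 of 10, and 1 of these held a GATA motif. Bcl11a, a zinc finger repressor required for lymphoid development, had 7 of 12, with log2 CPM between 0.52 and 1.97, and 2 with a GATA motif. Foxo1 had 3 of 7 and Bach2 5 of 28, and MPP4 had 2 and 8 distal peaks of its own at them. The strongest Bach2 peak, chr4:32580027-32580248 (log2 CPM 2.12), held an EBF1 and a PU.1 motif. Igll1, a surrogate light chain gene of the pre-B cell receptor, had none among its 2 MPP3 peaks.

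Early lymphoid genes had a lower share, 21.8% (19 of 87, interval 14.5 to 31.6%), which covers that of all genes. Ikzf1 (Ikaros) had 4 of 13, 1 of them with an EBF1 motif, Notch1 3 of 10, and Tcf4, an E protein gene, 4 of 19. Flt3, by which MPP4 cells are sorted, had 1 MPP3-only peak among its 9 MPP3 peaks. It had a log2 CPM of 1.33 and lay 117 bp from an MPP4 peak. Its window, printed above, held an EBF1 motif in both of its forms and a HOX-PBX motif that begins just outside the peak. MPP4 had 3 distal peaks of its own at Flt3. T lineage genes had 26.9% (7 of 26). Genes of natural killer and innate lymphoid cells had 32.9% (24 of 73), of which Rora made 13 and Zbtb16 (PLZF) 7 of its 19. Of the 7 Zbtb16 peaks 3 held a GATA motif.

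Myeloid transcription factor genes had 22.5% (9 of 40, interval 12.3 to 37.5%). Irf8, which directs monocyte and dendritic cell fate, had 4 of its 5 distal peaks in the set, all intronic, with log2 CPM of 2.53, 2.21, 1.32 and 1.97, and MPP4 had 3 distal peaks of its own at the gene. Cebpa, the regulator of granulocyte fate, had 3 MPP3 peaks and none was MPP3-only. Spi1, which encodes PU.1, had 1, an intronic peak with a log2 CPM of 2.91 that held none of the 13 motifs. Granulocyte and macrophage effector genes had 20.5% (8 of 39) and dendritic cell genes 18.9% (10 of 53), where Runx2 had 5 of 21. Mast cell, basophil and eosinophil genes had 30.8% (8 of 26).

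Erythroid and megakaryocyte genes had 27.5% (19 of 69), close to the share of all genes. Zfpm1 stood out among them in abundance. Its 3 MPP3-only peaks had log2 CPM of 5.59, 3.77 and 2.82, the first 2 with a GATA motif and the third with an EBF1 motif, and lay 199, 4838 and 2044 bp from an MPP4 peak. Vwf (von Willebrand factor) had 3 of 12, 2 of them with a GATA motif, and Fli1 3 of 8. Stem and progenitor genes had 31.7% (59 of 186, interval 25.5 to 38.7%). Mecom, needed for stem cell maintenance, had 9 of 21, with log2 CPM up to 3.12 at chr3:30507320-30507530, 2062 bp from a start. Erg, an ETS factor of stem cells, had 9 of 28. Its 2 strongest, chr16:95427540-95427897 (3.37) and chr16:95428313-95428547 (3.15), were neighbours, and the latter held the EBF1 motif and 3 E-boxes printed above. Runx1 had 7 of 23, Mllt3 6 of 11, Etv6 6 of 20, Prdm16 4 of 15 and Hmga2 4 of 10. Meis1 had 3 of 13, 2 of them with a GATA motif, and MPP4 had no distal peak of its own there. At other genes of this list MPP4 had its own, 12 at Prdm16, 8 each at Erg and Runx1, 6 at Etv6 and 4 at Mecom. Fgd5 had 3 of 6. Genes listed for other tissues had 40.9% (9 of 22, interval 23.3 to 61.3%), among them the neuronal Gad1 with 3 of 4 and the epithelial Cdh1 with 4 of 7. Whether progenitors use any of these genes was not examined.

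The list shares moved with abundance. The median log2 CPM of all distal peaks at a list was 1.76 at genes of other tissues, 2.01 at B lineage, 3.08 at myeloid transcription factor and 1.97 at all genes. With only peaks of a log2 CPM of 2 or more, 11 of 68 B lineage peaks (16.2%) were MPP3-only, 12 of 92 stem and progenitor peaks (13.0%), 7 of 42 erythroid and megakaryocyte peaks (16.7%) and 5 of 33 myeloid transcription factor peaks (15.2%), against 7.89% over all genes (2114 of 26810). Early lymphoid genes, at 4 of 53 (7.55%), dendritic cell genes, at 2 of 32 (6.25%), and granulocyte and macrophage effector genes, at 1 of 24 (4.17%), stood below that share. The remaining 4 lists had between 11.8% and 15.4%. At all abundances B lineage genes had 39 MPP4-only distal peaks (47 MPP3-only), early lymphoid 30 (19) and T lineage 14 (7). Natural killer and innate lymphoid genes had 17 (24), myeloid transcription factor 12 (9) and granulocyte and macrophage effector 7 (8). Mast cell, basophil and eosinophil genes had 4 (8), and erythroid and megakaryocyte 11 (19). Stem and progenitor genes had 62 (59), dendritic cell 19 (10), other tissues 12 (9) and all genes 14459 (15045).

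Some MPP3-only peaks stood next to each other along the chromosomes. Runs also arise in a random order of peaks, and the number expected from the MPP3-only share of all MPP3 peaks was not worked out. Of 18180, 9932 stood alone between other MPP3 peaks, 7287 were in runs of 2 to 4 and 961 in 161 runs of 5 or more consecutive MPP3 peaks. The longest run, 18 peaks, was at chr2:171034701-172226749 and consisted mostly of repeats, with a median of 70.3% soft-masked. The next, 12 peaks at chr4:153253844-153670527 by Ajap1, had a median of 0%, as did 11 peaks at chr1:91615243-91945587 by Hdac4 and Twist2. Csmd2, a neural gene, held 9 of the 10 peaks of a run at chr4:128019215-128524819, and Cacna1i, a calcium channel gene, 7 of 9 at chr15:80303736-80445128. A run of 9 at chr16:18958341-19263604 had 1 peak each at Iglv1 and Iglv2, variable segments of the immunoglobulin lambda light chain. Hira, 2010309G21Rik, Gm18748 and Gm28539 also had 1 each, and 3 peaks had no gene. Peaks in this run had log2 CPM between 1.17 and 2.51, 2 of the 9 held an EBF1 motif, and the nearest MPP4 peak was 80280 bp away. The log2 CPM medians of the runs of 9 or more lay between 0.68 and 1.78. In 96 genes, 3 or more distal MPP3 peaks were present and all were MPP3-only. The number of such genes expected from the MPP3-only share over all genes was not worked out. Those with 5 or 6 such peaks included Ube4b with 6, and Trp73 (p73) and the neural factor gene Lmx1a with 5 each. MPP4 had 3 distal peaks of its own at Ube4b, 2 at Trp73 and none at Lmx1a.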

How the data were processed

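ATAC-seq libraries from 5000 sorted MPP3 or MPP4 cells (2 per genotype and cell type) had been sequenced to the same stated depth. Per the labels and the study, the authors called peaks with MACS2 2.2.7.1 on mm10 from short fragments of merged replicates, joined them with bedtools and compared KO with WT by edgeR 3.32.0, in 1 deposited table per cell type. Each table gives log2 CPM, the authors' mean over the 4 libraries. Its columns of fold change, F statistic, p-value and FDR are the authors' own KO against WT comparison and were not used. Depth per library was not analysed here, and peak calling on merged reads at different depth could add or remove weak peaks. 0 other columns of per-sample values were left out.

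Overlap meant at least 1 shared base. Sequence and soft-masking were read from the GRCm38 RefSeq genome, transcripts from GENCODE vM21. Overlap, distance, motif and interval functions (numpy 2.4.6, pandas 2.3.3, pyranges 0.1.4) were tested on simulated data. Shares carry Wilson 95% intervals, which treat peaks as independent.

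The peaks, the 11 gene lists and the 13 motifs were chosen with earlier results of these data known. Peaks and genes were named by rule: the 10 highest in log2 CPM per kilobase under 50% soft-masked, the 10 genes with the most MPP3-only peaks (with ties), listed genes with at least 3, the genes Ebf1, Cebpa and Igll1, and the highest peak with a GATA, C/EBP, EBF1 or E-box motif. Some items that these rules name are not reported here. The isolated peaks, the runs' genes, Flt3, Spi1, the genes whose distal MPP3 peaks were all MPP3-only and the CTG spacing were added after the values were seen. Alternatives varied the overlap, the distance, an abundance minimum, the window, its GC content (45 to 55%) and the gene assignment. Runs were counted over all MPP3 peaks in order along each chromosome.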

Additional observations from a re-analysis of the deposited data

How the results depend on the processing

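The number of MPP3-only distal peaks stayed within 1.5 times of 18180 in 4 of 5 alternatives and was 2387 with a log2 CPM minimum of 2. Their share of the distal peaks was 26.04% without those within 500 bp of an MPP4 peak, 29.7% where a shared peak had to be covered over at least 50%, 29.5% beyond 5 kb from every start and 7.77% at a log2 CPM of at least 2. At that minimum 55.6% were in introns, 38.3% intergenic and 6.07% in exons. The share with a GATA motif was 13.4% over whole peaks (12.6% in the shared peaks, which are longer), 20.4% at a log2 CPM of at least 2 (8.98% in the shared), 14.1% at a window GC of 45 to 55% (8.69%) and 14.3% in windows under 50% soft-masked (8.50%), the last chosen after seeing the data. For EBF1 these were 6.10% (5.60%), 9.97% (3.95%), 4.92% (2.89%) and 6.13% (3.66%). For RUNX the first 3 were 8.24% (16.4%), 9.01% (13.3%) and 8.55% (13.5%), and PU.1 was 5.90% (12.1%) at that GC. Over 13 motifs and 5 alternatives, 62 of 65 shares stayed on the same side of the shared peaks. The exceptions were E-boxes at a log2 CPM of at least 2 (33.9% against 30.9%) and C/EBP at that minimum (12.3% against 9.61%) and in windows under 50% soft-masked (9.57% against 9.28%).

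At this abundance minimum, the MPP3-only share was 16.2% at B lineage, 7.55% at early lymphoid, 11.8% at natural killer and innate lymphoid, 4.17% at granulocyte and macrophage effector, 15.4% at mast cell, basophil and eosinophil, 16.7% at erythroid and megakaryocyte, 13.04% at stem and progenitor, 6.25% at dendritic cell and 12.5% at other tissue genes, against 7.89% at all genes. With the gene of the nearest start in place of the assigned gene, each list stayed within its interval.

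No paired analysis was possible because the results come from no test and the values are means over libraries. Leaving out a replicate was not possible for the same reason. Of the distal MPP3 peaks with a log2 CPM under 1, 76.1% were MPP3-only, and the reads behind them were not analysed here.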
